A study of Gallus gallus with 4 samples.

Results

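The cytosolic ribosomal protein genes of the chicken ovary were taken as all genes listed under cytosolic large ribosomal subunit or cytosolic small ribosomal subunit in the deposited gene ontology (GO) tables. They numbered 53 of the 17934 genes of the GO analysis, 20 in the small subunit and 33 in the large subunit, and no gene was in both. The 2 GO tables gave the same 53 genes. Ovaries came from 2 sub-breeds of the Ningdu Yellow chicken, one that matures sexually early and one that matures late. In the early sub-breed, laying hens at 103 days (P-F-O2) were compared with pre-laying hens at 32 days (P-F-O1). In the late sub-breed, hens at 153 days (L-F-O2) were compared with pre-laying hens at 32 days (L-F-O1). The sample label gives L-F-O2 as laying whereas the series' design text gives it as pre-laying, so it is identified here by its age alone. By the labels all birds were reared alike in cages and fed freely, and no treatment or genetic change is named.

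Each group was 1 library made from the mixed ovary RNA of several hens, so that hens within a group cannot be told apart and no comparison has a replicate. The older library of each comparison was also the more deeply sequenced one, so that depth and age cannot be told apart. The readout is the call itself. By the methods of the study, a gene was called differentially expressed when either its fold change or its p-value passed a limit. The tables list the identifiers of the called genes of each term. The lists give neither a level nor a direction, so that "called" below means that a gene differed in either direction. In whole ovaries, a change in the RNA of each cell and a change in the proportions of cells cannot be told apart. The calls of the 53 genes could be read in both comparisons, and each call was the same in every term that held the gene. No markers of ovarian cell types could be read from lists without levels, and the labelled tissue was not tested.

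The ribosome translates messenger RNA into protein. Its small subunit binds the messenger RNA and reads the codons, and its large subunit joins the amino acids and holds the tunnel through which the new chain leaves. Most cytosolic ribosomal proteins are made in the cytoplasm and carried to the nucleolus to be assembled on ribosomal RNA, and some join the ribosome later, in the cytoplasm. The genes are usually expressed together and at high levels in cells that grow. The growing oocyte is known for storing ribosomes for the embryo, and the granulosa and theca cells around it divide and secrete as follicles grow.

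Nearly all cytosolic ribosomal protein genes were called in the early sub-breed, and fewer were called in the late sub-breed. Of the 53 genes, 47 (88.7%) were called in P-F-O2 vs P-F-O1, beside 28.1% of all 17934 genes. In L-F-O2 vs L-F-O1, 33 (62.3%) were called, beside 23.2% of all genes. The 2 subunit terms were listed by the authors' enrichment analysis of these same calls. A share unlike that of all genes was thus partly a condition for their listing, and the contrast is a description alone. The shares of all genes include genes that the study did not detect. By the methods of the study a call could rest on the p-value alone, whereas its results give a fold change limit beside the number of called genes. Which rule gave the lists used here is not known, so a high share called is not read as large changes. The deposited lists gave no levels, and the gene table of the study was used for names alone, without its values. The ribosomal protein genes were therefore not matched to all genes by level, and a part of level in the calls was not tested. The 33 genes of the late sub-breed were all among the 47 of the early sub-breed. Thus 33 genes were called in each comparison, 14 were called only between P-F-O2 and P-F-O1, 0 only between L-F-O2 and L-F-O1, and 6 in neither. These are counts of genes in 1 comparison of 2 pooled libraries each, and the difference between the sub-breeds was not tested. The older hens were 103 days old in the early and 153 days old in the late sub-breed, and the laying state of L-F-O2 is unclear. Sub-breed, age and laying state therefore cannot be told apart between the comparisons.

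**Figure D1:**
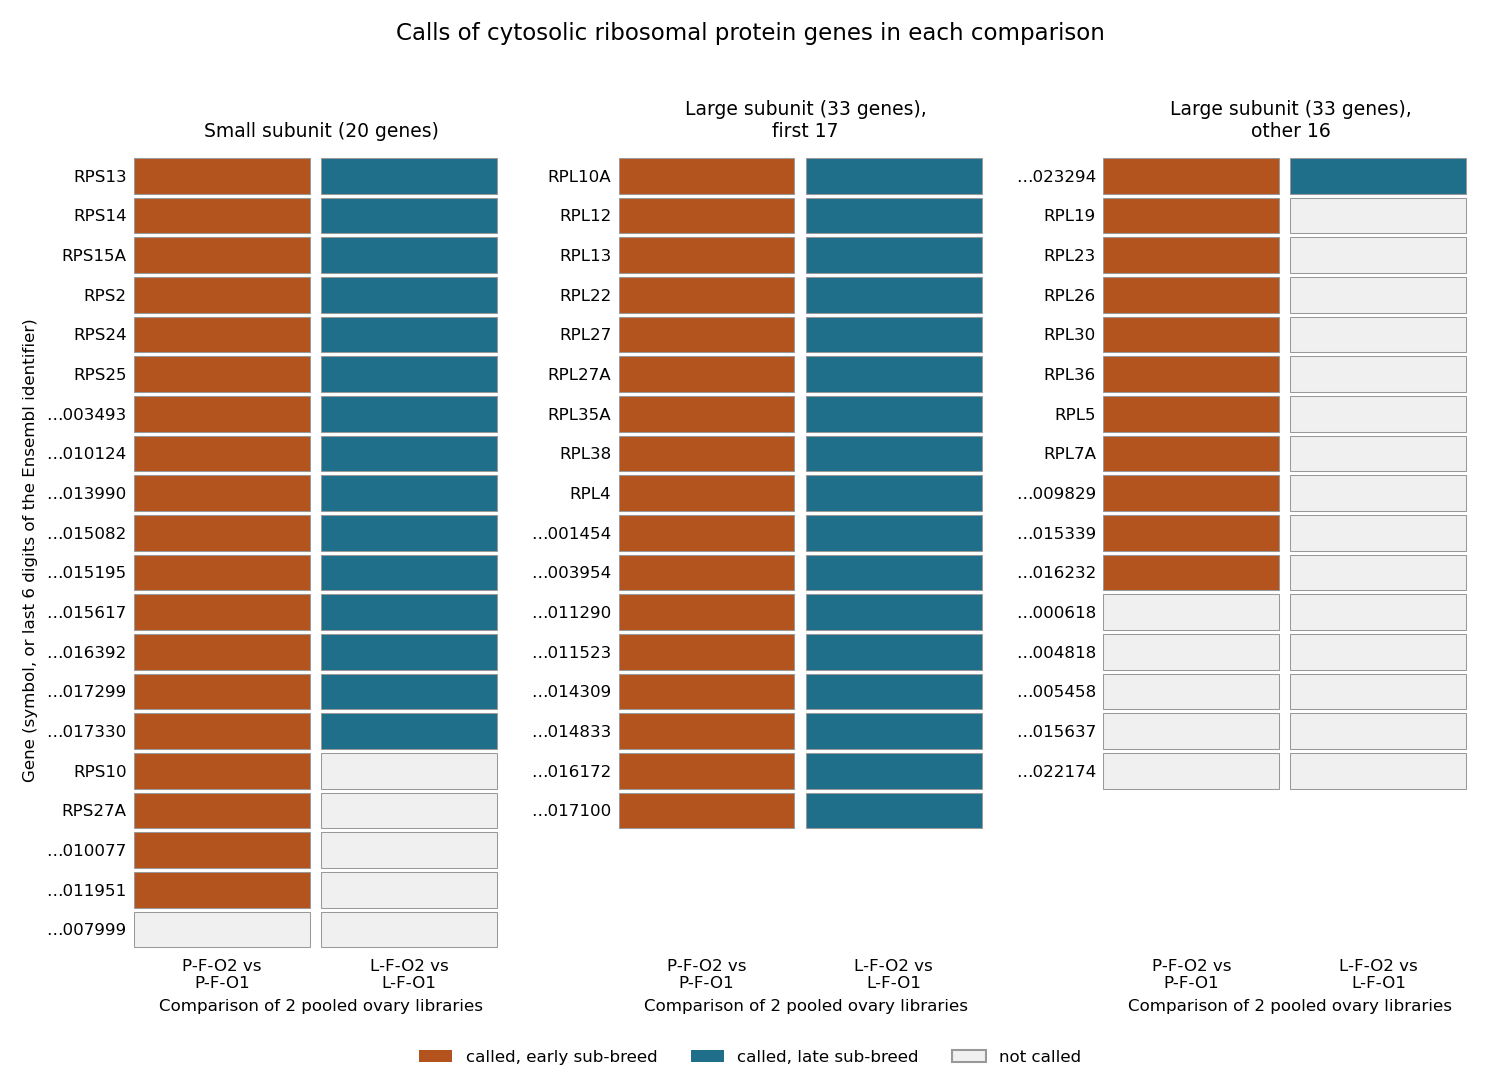
Calls of the 53 cytosolic ribosomal protein genes, with genes in rows and the 2 comparisons in columns (filled, called; pale, not called). The rows are sorted by subunit and by the number of comparisons with a call, and every gene called in the late sub-breed was called in the early sub-breed too.

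The overlap was set beside that of all genes with a readable call in both tables. Among the 11420 such genes, 2037 (17.8%) were called in both comparisons, whereas 62.3% of the ribosomal protein genes were. That 62.3% is also their share called in the late sub-breed, so the contrast largely repeats the shares given above. Of the genes called in the early sub-breed, 70.2% of the ribosomal protein genes and 63.7% of all genes were also called in the late one. Of the genes called in the late sub-breed, all of the ribosomal protein genes (100%) and 79.3% of all genes were called in the early sub-breed as well. These shares depend on how many genes were called in each comparison. In the early sub-breed, 88.7% of the ribosomal protein genes and 28% of the 11420 genes were called. In the late one, the shares were 62.3% and 22.5%. Overlap beyond these shares was not tested. In the early sub-breed alone, 26.4% of the ribosomal protein genes and 10.2% of all genes were called. In the late sub-breed alone, 0% and 4.67% were called. At the other end, 11.3% of the ribosomal protein genes and 67.3% of all genes were called in neither. The libraries of the 2 comparisons were separate, but a call is not known to have the same direction in both.

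The small subunit held the higher share of called genes in both comparisons. Of its 20 genes, 19 (95%) were called in the early sub-breed and 15 (75%) in L-F-O2 vs L-F-O1. Of the 33 genes of the large subunit, 28 (84.8%) and 18 (54.5%) were called. The share in the early sub-breed exceeded that in the late one by 20 percentage points for the small subunit and by 30.3 points for the large subunit. Of the genes called in the early sub-breed, 78.9% in the small and 64.3% in the large subunit were also called in the late one. Among the 11420 genes with a readable call in both tables, 28% and 22.5% were called, which differ by 5.5 points. Of those called in the early sub-breed, 63.7% were also called in the late one, so the share of the large subunit lay close to that of all genes. The subunits were not tested against each other.

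**Figure D2:**
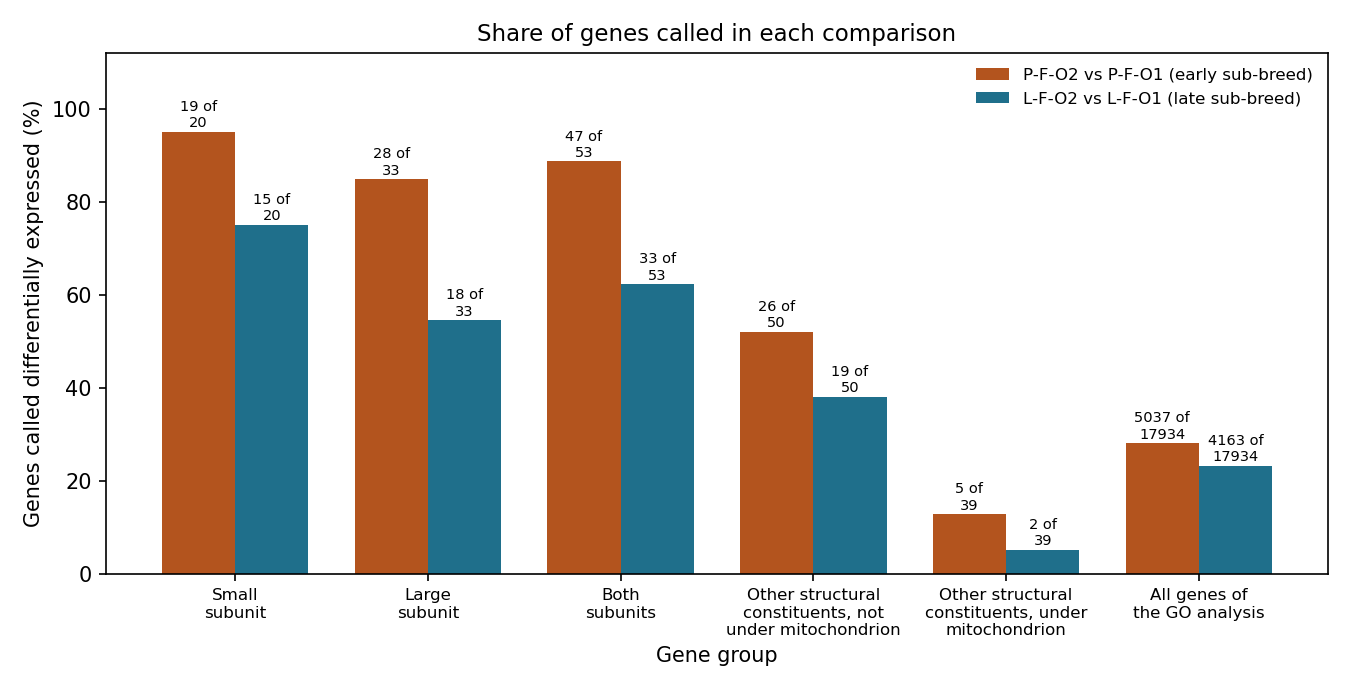
Share of genes called differentially expressed in each comparison (bars, with the number of called genes and of all genes of the group above each). The small and large subunits lie above the other genes listed as structural constituents of the ribosome and above all genes of the GO analysis in both comparisons.

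In the small subunit, RPS10 and RPS27A were called in P-F-O2 vs P-F-O1 but not in L-F-O2 vs L-F-O1. RPS10 lies near the entrance of the messenger RNA channel and is ubiquitinated in human cells when ribosomes collide. RPS27A is made as a fusion with ubiquitin, the small protein that marks others for degradation, so its messenger RNA supplies both products. The genes ENSGALG00000010077 and ENSGALG00000011951 followed the same pattern. ENSGALG00000007999 was the 1 gene of the small subunit that was called in neither comparison.

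In the large subunit, 16 genes had a symbol. Of these, 7, namely RPL5, RPL7A, RPL19, RPL23, RPL26, RPL30 and RPL36, were called in the early sub-breed but not in the late sub-breed. RPL5 enters the ribosome bound to the smallest ribosomal RNA, and outside the ribosome it binds MDM2 in human cells when ribosome assembly is disturbed. RPL23 also binds MDM2 in human cells. RPL19 reaches across to the small subunit as a bridge between the subunits, whereas RPL26 lies near the mouth of the exit tunnel. The identity of the RPL26 gene is uncertain, since the table that pairs it with this symbol also calls it L26-like 1, a near-identical copy, and reads of the 2 could be shared. Including 3 genes without a symbol, 10 large-subunit genes (30.3%) were called in the early sub-breed alone, against 4 (20%) of the small subunit. Of the 11420 genes with a readable call in both comparisons, 10.2% were.

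The large subunit also held 5 of the 6 genes called in neither comparison, which were ENSGALG00000000618, ENSGALG00000004818, ENSGALG00000005458, ENSGALG00000015637 and ENSGALG00000022174. They were 15.2% of the large subunit, against 5% of the small subunit and 67.3% of the 11420 genes with a readable call in both comparisons. None of the 6 genes had a symbol. This follows from how names were found, because the part of the gene table that was used names only genes called in the early sub-breed. Therefore all 24 genes with a symbol were called there (100%), against 23 of the 29 without a symbol (79.3%), and nothing is read from that difference. In the late sub-breed, 62.5% of the genes with a symbol and 62.1% of those without were called. The naming bears on these shares too, because all 6 genes called in neither were without a symbol. Of the genes called in the early sub-breed, 62.5% with a symbol and 78.3% without one were also called in the late sub-breed. Nothing is read from these shares either.

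Of the 8 genes of the small subunit with a symbol, RPS2, RPS13, RPS14, RPS15A, RPS24 and RPS25 were called in both comparisons. RPS2 lies near the entrance of the messenger RNA channel. RPS14 lies on the platform where messenger RNA leaves, and a reduced dose of it in human bone marrow leads to an anemia. RPS24 is a gene of the inherited human anemia Diamond-Blackfan anemia, and RPS25 is needed in human and yeast cells for initiation at internal entry sites of certain viral RNAs. Another 9 genes of the small subunit without a symbol were also called in both comparisons.

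In the large subunit, 9 genes with a symbol were called in both comparisons. They were RPL4, RPL10A, RPL12, RPL13, RPL22, RPL27, RPL27A, RPL35A and RPL38. RPL4 lines the exit tunnel, RPL10A forms the mobile stalk beside the exit site for transfer RNA, and RPL12 lies at the base of the stalk that recruits translation factors. RPL22 is dispensable for translation in mice but is needed for the development of their T cells. RPL38 promotes the translation of a subset of Hox messenger RNAs in mouse embryos, and RPL35A is another gene of Diamond-Blackfan anemia in humans. A further 9 genes of the large subunit without a symbol were called in both comparisons.

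The position of the ribosomal protein genes among the other genes of translation was examined next. Structural constituent of ribosome listed 137 genes, of which 48 were cytosolic ribosomal protein genes as defined here. Of these 48, 43 (89.6%) were called in the early sub-breed and 31 (64.6%) in L-F-O2 vs L-F-O1. Of the other 89 genes of that term, 31 (34.8%) and 21 (23.6%) were called, beside 28.1% and 23.2% of all genes. Among the 39 that were also listed under mitochondrion, which has its own ribosomes, 5 (12.8%) were called in the early sub-breed and 2 (5.13%) in L-F-O2 vs L-F-O1, below the share of all genes. Among the 50 not listed under mitochondrion, 26 (52%) and 19 (38%) were called. The annotation is not complete, since MRPS21, a mitochondrial ribosomal protein by name, was listed under mitochondrial part but not under mitochondrion.

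Part of those 50 genes were cytosolic ribosomal proteins by name that the subunit terms did not list. In the part of the gene table used here, 9 such genes were found, and all 9 were called in the early sub-breed because that part holds only called genes. They included RPS4, RPS21, RPL17L, RPL23A, RPL35 and RPL39. In the late sub-breed, 5 of the 9 were called, among them RPS21, RPL35 and RPL39, whereas RPS4, RPL17L and RPL23A were not. Of all genes called in the early sub-breed with a readable call in both, 63.7% were called in the late one. The 5 of 9 did not exceed that share. The list of 53 genes is therefore not the complete set of cytosolic ribosomal proteins of the chicken.

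Conversely, some of the 53 genes were missing from the general terms. RPS10, RPS25, RPL7A and 2 genes without a symbol were not listed under structural constituent of ribosome. These 5 genes and 2 more were not listed under translation either, which left 46 ribosomal protein genes there. Translation was listed for the early sub-breed alone, where 41 of the 46 ribosomal protein genes (89.1%) and 37 of the other 130 genes (28.5%) were called. The share of the other genes of translation lay close to the 28.1% of all genes. These 130 genes were not divided further, so ribosomal proteins outside the 53 were not set apart from the rest. Terms were listed by the authors' enrichment analysis, so that the shares of listed terms are not those of terms taken at random.

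In some listed terms that held ribosomal protein genes, the other genes were poor in calls. RNA processing, RNA binding and nuclear part were not among the planned terms. Terms were listed by an enrichment analysis of these same calls, so a share unlike that of all genes is no separate evidence. In other listed terms the other genes were not poor in calls. Developmental process had 33.3% and immune system process 44.3% of its other genes called in the early sub-breed. RNA processing held 11 of the 53 genes, of which 10 (90.9%) were called in the early sub-breed and 7 (63.6%) in L-F-O2 vs L-F-O1. Of its other 209 genes, 21 (10%) and 17 (8.13%) were called. RPS24, RPL5, RPL26 and RPL35A were among the 11, and ribosomal proteins are known to take part in the cutting of the precursor of ribosomal RNA. RNA binding held 12 of the 53 genes, with 9 (75%) called in the early sub-breed and 7 (58.3%) in L-F-O2 vs L-F-O1, whereas 58 (16.8%) and 42 (12.2%) of its other 345 genes were called.

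Nuclear part and nucleolus, of which nucleolus alone was a planned term, followed the pattern of RNA processing. Nuclear part held 13 ribosomal protein genes, with 12 called in the early sub-breed (92.3%) and 8 in L-F-O2 vs L-F-O1 (61.5%), and of its other 1074 genes 205 (19.1%) and 137 (12.8%) were called. Nucleolus, the site of ribosome assembly, was listed in the late sub-breed alone. There 7 of 12 ribosomal protein genes (58.3%) and 29 of 285 other genes (10.2%) were called. RPS13, RPS14, RPS25 and RPL4 were among the called genes of the nucleolus, and RPS10, RPL23 and RPL36 were not called. Of the mitochondrial genes outside the 53, 15.9% and 11% of 904 were called. In RNA processing, RNA binding, nuclear part and nucleolus, the share called was thus higher among the ribosomal protein genes than among the other genes of the term. The ribosomal protein genes of these terms were overlapping parts of the 53 with the same calls, so the terms are not separate evidence.

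**Figure D3:**
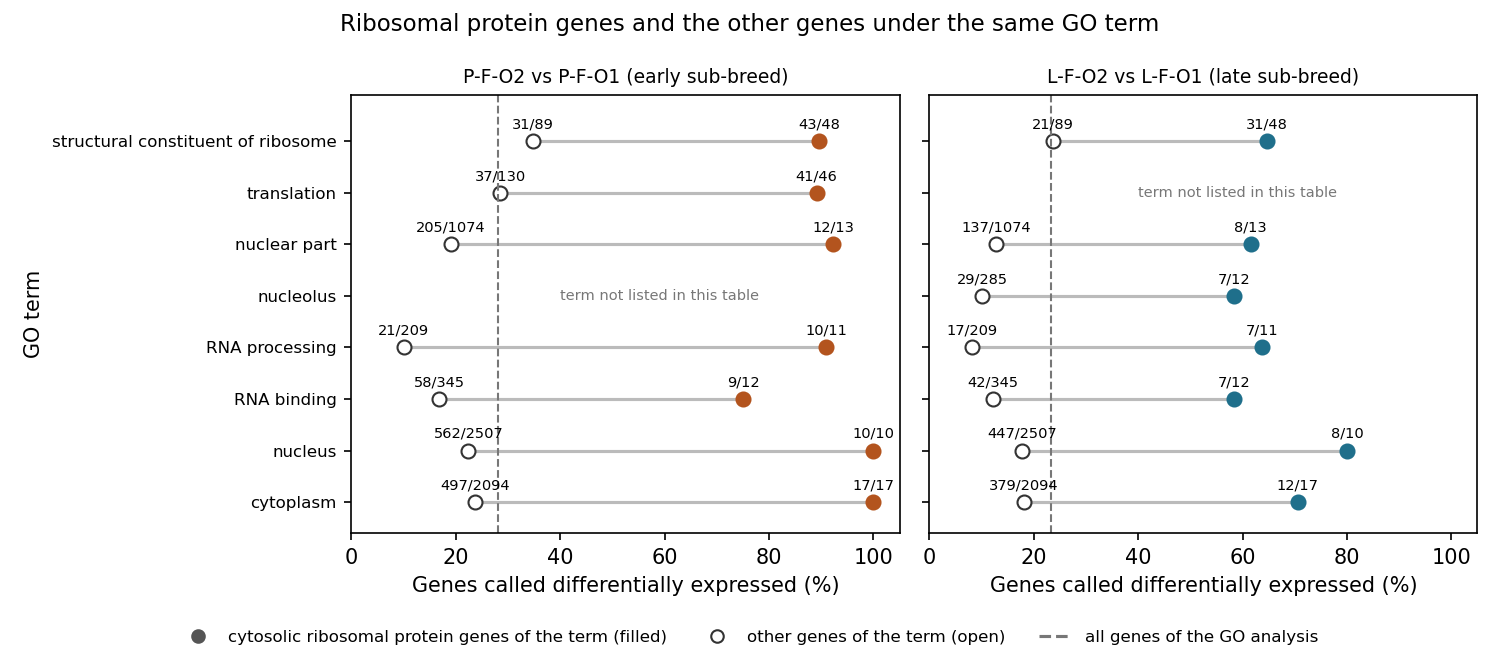
Share of genes called for the cytosolic ribosomal protein genes of a GO term (filled points) and for the other genes of the same term (open points), with the number called and the number of genes above each point. In RNA processing, 90.9% and 63.6% of the ribosomal protein genes and 10% and 8.13% of the other genes were called, and the dashed line gives all genes.

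Other annotations divided the 53 genes as follows. All 53 were listed under cytoplasmic part, so a listing under cytoplasm divides them by annotation and not by place in the cell. The 17 genes also listed under cytoplasm were all called in the early sub-breed (100%), against 30 of the 36 others (83.3%), and in the late sub-breed 12 (70.6%) were called against 21 (58.3%). Of the 12 genes of RNA binding, 75% were called in the early sub-breed, against 92.7% of the 41 others, and in the late sub-breed 58.3% were called against 63.4%. These differences rest on few genes and were not tested.

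Single genes carried annotations that the rule did not use. RPL22 was the 1 gene of the 53 under immune system process and, in the late sub-breed's table, under glycosaminoglycan binding. RPL22 and RPS14 were the 2 genes under developmental process, and both were called in both comparisons. RPS15A was listed under response to other organism in the early sub-breed's table and under regulation of cell proliferation in the late sub-breed's table, and was called in both comparisons. RPS14 and ENSGALG00000007999 were the 2 genes also listed under mitochondrion, and RPS14 was called in both comparisons whereas ENSGALG00000007999 was called in neither.

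The deposited tables of KEGG pathways, a collection of curated pathway maps, gave 11 genes as the whole of the ribosome pathway in both comparisons. All 11 were called in the early sub-breed (100%) and 5 (45.5%) in L-F-O2 vs L-F-O1, beside 28.1% and 23.2% of all genes of the GO analysis. The 11 genes were known only from lists of called genes, and all had an identifier number below 3000, so the pathway was covered in part. Of the 11, 8 were among the 53 genes, namely RPS10, RPL19, RPL22, RPL23, RPL26, RPL27, RPL36 and RPL38, and the other 3 included RPL35. Of these 8 genes, RPL22, RPL27 and RPL38 were called in the late sub-breed. The calls of the shared genes are the same calls as in the GO tables and are not further evidence.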

How the data were processed

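RNA of ovaries from 4 groups of Ningdu Yellow hens was pooled within each group and sequenced as 1 library per group. By the methods of the study, the authors removed adapters and low-quality bases with SeqPrep and Sickle, aligned the reads with TopHat to galGal4 (the labels name the same aligner and build), expressed the levels as FPKM, and used Cuffdiff to call genes that passed either a fold change limit with a minimum FPKM or a p-value limit. They then listed GO terms with Goatools and KEGG pathways with KOBAS. The 4 deposited tables hold gene identifiers and numbers of genes per term, together with the authors' p-values and adjusted p-values, which were not used. They hold no value per library, so no level, fold change or interval is given. The study lists the reads of each library, with more reads in the older library of both comparisons, and it detected fewer genes than the GO tables count as their population.

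Gene lists of the late sub-breed were broken across lines at 44 places with 1 character lost at each. Each broken identifier was completed from the only intact identifier with the same characters that sorted between its neighbours, and every list then had its deposited length. The completion was also run on simulated breaks in intact lists of the early sub-breed, and the share recovered there is not given here. No broken identifier was in a subunit row. Calls were counted with Python 3.11.15, beside all genes of each table. No test was made, since each group had 1 library.

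The members and lists were chosen with earlier results of these data known. Every member is accounted for, by symbol where a gene table of the study gave one (24 of 53) and by identifier otherwise, with members called in 1 comparison alone or in neither described first. Only the part of that table given for the early sub-breed was used, for names alone. Of the 24 symbols, 23 were in RefSeq's annotation of GRCg7b, and RPL26 was there only as a synonym of ATP6V0E1. That annotation matched 0 identifiers directly and gave no coordinates here. Of the other terms of translation looked for, 7 (ribosome biogenesis, rRNA processing, translation factor activity, initiation, elongation and both terms for the ribonucleoprotein complex) were listed in neither table. Alternatives were another source of the member list or of the call, broken identifiers left out, broader or narrower lists, and another population. Sequences of promoters and proteins were not analysed here. The values of 1 gene outside the members are not reported here.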

Additional observations from a re-analysis of the deposited data

How the results depend on the processing

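Of 49 alternative values, 43 stayed within 1.5 times the reported one, and the other 6 came from 2 member lists. The 2 GO tables gave the same 53 genes, no gene was in both subunits, and no broken identifier was in a subunit row. Each call was also the same in every term, so many of the 43 were fixed in advance and are no measure of stability. With all genes of structural constituent of ribosome as members, the calls numbered 74 for the early sub-breed, 52 for the late one and 50 for both, of 137 genes. With the genes of KEGG ribosome, the counts were 11, 5 and 5 of 11 genes. Both moved because the lists hold more or fewer genes. The share called was higher for the early than for the late sub-breed under both (54% against 38%, and 100% against 45.5%). The KEGG genes were known only from lists of called genes, and 8 of the 11 were among the members. The KEGG shares are therefore no separate support for that difference. With the genes of ribosomal subunit as members, 51 and 36 of 73 genes were called, or 69.9% and 49.3%. The share of all genes called was 28% and 22.1% when only genes named by identifier were counted. Without the genes listed under mitochondrion, 18 of 18 small-subunit genes were called in P-F-O2 vs P-F-O1 and 14 in L-F-O2 vs L-F-O1. Counting mitochondrial part with mitochondrion, an alternative chosen after seeing the data, 14.3% and 7.14% of 42 mitochondrial and 53.2% and 38.3% of the 47 other structural constituents were called. The planned search of promoters and description of proteins were not run, as no sequences were used here. No paired analysis was possible because each group had 1 library and the calls come from no test made here. Calls rest on 1 pooled library per group, and the older library of both comparisons was the deeper one, so that depth and age cannot be told apart. The shares of all 17934 genes include genes that the study did not detect.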

Other observations

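The KEGG tables covered the ribosome unevenly. Of the 181 called genes that they name over all pathways, 176 (97.2%) had an identifier number below 3000, against 538 of the 3785 called genes named in the GO tables (14.2%). The limit of 3000 was chosen after seeing the data. Of the 53 ribosomal protein genes, 11 had an identifier below 3000, and 8 of these were in KEGG ribosome, whereas 0 of the other 42 were. RPL10A, ENSGALG00000001454 and ENSGALG00000000618 were below 3000 and were not in KEGG ribosome. Why the pathways hold mainly low identifiers was not tested.

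Some genes listed as structural constituent of ribosome were not ribosomal proteins by name. Of the 18 genes of that term outside the 53 that the gene table used here describes, 11 were ribosomal proteins by name and 7 were not. The 5 of these with a symbol were NLRC5, an immune regulator, SPNS3, of a family of lipid transporters, CYLD, a deubiquitinase, TRPC5, a cation channel, and PLEK2, a pleckstrin. All 5 were called in the early sub-breed, as were all genes of that part of the table, and NLRC5, CYLD, TRPC5 and PLEK2 were called in the late sub-breed as well.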
